A study of Mus musculus with 24 samples.

Results

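The nuclear genes of oxidative phosphorylation were followed across murine neuroblastoma and adrenal gland tissue. All rows of the expression table whose symbol began with Nduf, Uqcr or Atp5, that were named Cox4 to Cox8, that were 1 of the 4 Sdh subunit genes or that were Cyc1 were taken, which gave 98 of 21833 genes. By symbol, 38 of them belonged to complex I, 8 were complex I assembly factors (Ndufaf), 4 belonged to complex II, 9 to complex III, 21 to complex IV (Ndufa4 and Ndufa4l2 included) and 18 to complex V. The unit was FPKM, which divides the fragments of a gene by its length and by the size of the library, so levels can be compared between genes. Of the 98 members, 93 reached at least 1 FPKM in at least 3 libraries and were tested. The other 5 were Ndufb11b, Cox8c and Atp5o.1, which were listed at 0 in each library, and the tissue isoforms Cox6a2 and Cox6b2.

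Whole frozen tissue of 4 groups was compared. AG were adrenal glands of CRE - mice (n = 3). AGM were adrenal glands of MYCN +/-, CRE + mice (n = 5), which carry no tumor and were taken at about a year of age. TI were neuroblastoma tumors of IGF2BP1, CRE + mice (n = 8; 1 sample +/- and 7 samples +/+), and TIM were neuroblastoma tumors of IMP1/MYCN, CRE + mice (n = 8), IMP1 being another name of IGF2BP1. The authors report that tumor mice were mostly culled at younger ages than AGM, with the lowest median survival in TIM. Age and group therefore cannot be told apart in comparisons with AGM. In the 3 CRE + groups, a Cre recombinase under the Dbh promoter removed a stop cassette before the human transgenes at the Rosa26 locus, so the transgenes act in sympatho-adrenal cells only, whereas an adrenal gland also holds steroid-producing cortex and attached fat. In all, 1 TI sample and 2 TIM samples were tumors of the adrenal gland and 1 TIM sample was a spinal tumor, the others being labelled as tumor only.

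The inner mitochondrial membrane holds 5 enzyme complexes. Complexes I and II take electrons from NADH and succinate, complex III passes them to cytochrome c, complex IV hands them to oxygen, and complex V uses the resulting proton gradient to make ATP. Complex II is also an enzyme of the tricarboxylic acid (TCA) cycle and the complex of the chain that is encoded by nuclear genes alone, and loss of SDH genes is a known cause of human paraganglioma, a tumor of the same lineage as neuroblastoma. Several complex IV subunits exist as a general isoform and as a tissue isoform that is abundant in heart, muscle or brown fat.

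Libraries are numbered by the order of their columns within a group, since no column could be tied to 1 sample title. Outside 126 genes with values above 1000 FPKM in some library, which include no member, the 24 libraries held 12334076 to 23683176 reads recovered from the FPKM. These values had been corrected for batch, so they are not raw reads. No gene exceeded 926 FPKM in an AG or TI library. In the AGM and TIM libraries the highest gene reached between 76103 (TIM 7) and 12269461 FPKM (AGM 3). With these genes included, AGM 3 held 1170004708 recovered reads, and the reason was not tested. All 13 subunit genes encoded in the mitochondrial genome were listed at 0 in every library, so the subunits of complexes I, III, IV and V that they encode were not analysed here. Summed FPKM of 11 adrenal cortex markers lay between 806 and 842 for AG, between 4446 and 5564 for AGM, and did not exceed 20.8 in any TI or 15.1 in any TIM library. Summed FPKM of 10 chromaffin or sympathoblast markers lay between 141 and 203 for AG, between 1478 and 2553 for AGM, between 194 and 1823 for TI, and between 213 and 4772 for TIM. Summed FPKM of 5 brown adipocyte markers was 5.44, 78.0 and 91.5 in the AG libraries, between 82.7 and 358 for AGM, between 1.05 and 10.3 for TI, and between 0.544 and 52.8 for TIM, of which TIM 5 was the highest. Of these 5, Ucp1, the uncoupling protein that defines brown fat, reached 3.90 FPKM in AG 1, 52.1 in AG 2, 62.8 in AG 3, 37.1 to 206 in AGM, at most 0.169 in TI, and 13.7 in TIM 5. In whole tissue, fewer cells of a type and less RNA per cell cannot be told apart.

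Subunits of complexes II and III were lower in both kinds of tumor than in AG. In TI against AG, 39 of 93 tested members (41.9%) were lower and 3 were higher (limma on log2(FPKM + 1), Benjamini-Hochberg false discovery rate, FDR, below 0.05). Over all 10171 tested genes, 27.7% were lower and 24.6% were higher. The median log2 fold change of the members was -0.44, beside -0.0021 over all tested genes. By complex, the lower members were 15 of 37 in complex I, 4 of 4 in complex II, 8 of 9 in complex III, 6 of 18 in complex IV, 5 of 17 in complex V and 1 of 8 assembly factors. The higher members were Ndufb2, Cox7a2l and Atp5g1, of which 1 was left without AG 1 or without AG 3. The median log2 fold changes were -0.44, -1.15, -0.9996, -0.49, -0.39 and -0.28 in the same order. The lower shares of complexes IV and V, at 33.3% and 29.4%, were near that of all tested genes, and nothing is read from them.

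In TIM against AG, 34 of 93 members (36.6%) were lower and 2 were higher, where 28.5% of all tested genes were lower and 22.5% were higher. Complex II again had 4 of 4 and complex III 7 of 9 lower members, with medians of -1.14 and -0.75. Complexes I, IV and V had 12, 5 and 4 lower members and medians of -0.36, -0.32 and -0.30. The lower share of complex I, 32.4%, was near that of all tested genes, and nothing is read from it. The lower shares of complexes IV and V, 27.8% and 23.5%, did not exceed that of all tested genes. TI and TIM were compared with the same 3 AG libraries. Without AG 2 the lower members of TIM numbered 18 (19.4%) and without AG 3 they numbered 19 (20.4%), shares below those of all tested genes in the same fits, 23.6% and 23.7%. In TI the shares were then 32.3% and 31.2% of members, beside 23.3% and 23.1% of all tested genes. Both higher calls of TIM, Cox7a2l and Atp5md, were lost without any one of the AG libraries. Without TIM 2, TIM 4, TIM 5 or TIM 8 there was 1 higher member, and without TIM 6 there were 4. AG shared no sequencing run with TIM, so run and group cannot be told apart in that comparison.

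**Figure D1:**
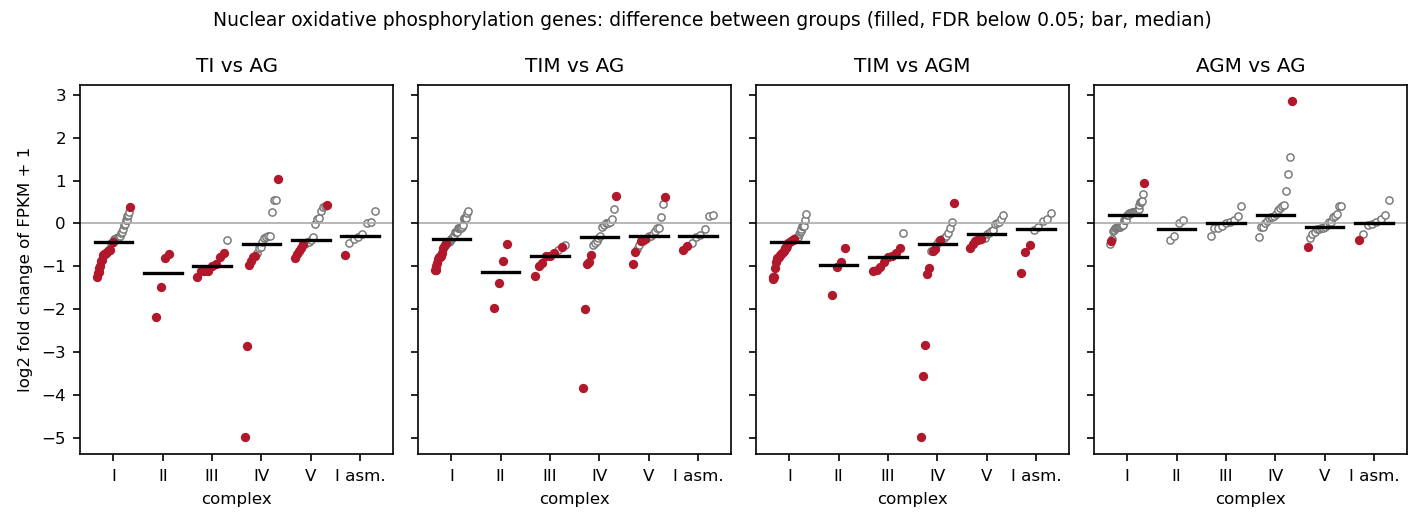
Log2 fold change of FPKM + 1 for each of the 93 tested members, by complex and comparison (I asm., complex I assembly factors). Filled points passed an FDR of 0.05 and bars are medians: the bars of complexes II and III lie lowest in the first 3 panels (-1.15 and -0.9996 in TI against AG), and lie near 0 in AGM against AG.

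Complex II showed the largest median. Sdha, the flavoprotein that oxidises succinate, measured 25.4, 32.9 and 33.8 FPKM in the AG libraries and 22.7, 28.0, 24.4, 23.3 and 24.3 FPKM in AGM. In TI its level ran from 4.49 (median 5.83) to 8.93 FPKM and in TIM from 3.38 (median 6.74) to 14.1 FPKM. No tumor library reached the lowest adrenal gland. The log2 fold change was -2.19 ± 0.23 (SE) in TI (FDR = 4.94e-08) and -1.97 ± 0.23 in TIM (FDR = 2.53e-07) against AG, and -1.67 ± 0.20 in TIM against AGM (FDR = 1.61e-07). Sdhb, the iron-sulfur subunit that receives the electrons, was at 25.7, 32.2 and 34.9 FPKM in AG and at 24.6, 19.1, 21.7, 20.5 and 32.6 FPKM in AGM. It ranged from 7.60 (median 10.5) to 13.2 FPKM in TI and from 8.60 (median 10.8) to 16.9 FPKM in TIM, again below each adrenal gland. Sdhb fell by 1.49 ± 0.19 on the log2 scale in TI and by 1.40 ± 0.19 in TIM. The membrane anchors Sdhc and Sdhd fell by 0.82 ± 0.17 and 0.71 ± 0.19 in TI and by 0.88 ± 0.17 and 0.49 ± 0.19 in TIM.

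The 4 genes lie on different chromosomes of GRCm39, Sdha on chromosome 13 (74469359 to 74498436), Sdhb on chromosome 4 (140688502 to 140709380), Sdhc on chromosome 1 (170954732 to 170978223) and Sdhd on chromosome 9 (50507642 to 50515195). The DNA around the start of transcription is shown for Sdha and Sdhd, which were picked for holding the palindromic motif of NRF1, a general activator of respiratory genes. Capitals mark matches on either strand to that motif (GCGCA, any base, GCGC) and, in Sdhd, to the ETS motif CCGGAAG. Sequences run from 100 bases before to 20 bases after the start (RefSeq, GRCm38.p6), at chr13:74350221-74350340 and chr9:50603830-50603949, both on the minus strand.
Sdha: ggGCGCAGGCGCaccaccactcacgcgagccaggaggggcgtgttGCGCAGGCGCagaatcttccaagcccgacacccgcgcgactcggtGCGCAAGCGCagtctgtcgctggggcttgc
Sdhd: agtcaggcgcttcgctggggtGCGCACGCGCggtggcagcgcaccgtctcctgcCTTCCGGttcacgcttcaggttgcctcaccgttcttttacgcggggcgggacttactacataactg
The NRF1 motif occurred 3 times in the Sdha stretch and 1 time in that of Sdhd. The same stretch of Sdhb, which fell by more than Sdhd, held no match to it and 1 match to the ETS motif. Of all 32851 listed windows of 300 bases, 4.60% held the NRF1 motif and 8.86% the ETS motif. A window was listed for 77 of the 98 members (78.6%), too few for a share over the members. Nrf1 itself was at 0.456 ± 0.037 FPKM in AG (SD, n = 3), below the filter of 1 FPKM, and passed that filter only through other groups. Its log2 fold changes against AG, 0.39 in TI (FDR = 0.00481) and 0.18 in TIM (FDR = 0.191), are therefore not read as a result.

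In complex III the catalytic and structural subunits were lower together. Cyc1, the cytochrome c1 that donates electrons to cytochrome c, measured 22.7, 31.7 and 32.0 FPKM in AG and 32.8, 28.6, 27.0, 28.2 and 47.1 FPKM in AGM. It measured 9.42 to 17.4 FPKM (median 12.8) in TI and 10.96 to 24.6 FPKM (median 13.3) in TIM. TI lay below each AG library, and 1 TIM library, TIM 5, overlapped AG. Cyc1 fell by 1.11 ± 0.21 on the log2 scale in TI (FDR = 0.000127) and by 0.92 ± 0.21 in TIM (FDR = 0.000857). The small subunit Uqcr11 was at 46.1, 64.3 and 60.9 FPKM in AG, at 10.9 to 39.0 (median 27.8) in TI and at 14.3 to 43.0 (median 21.4) in TIM, with log2 fold changes of -1.24 ± 0.35 and -1.22 ± 0.35. The small subunits Uqcr10 and Uqcrb and the core protein Uqcrc2 fell by 1.11, 1.11 and 0.95 on the log2 scale in TI, and the core protein Uqcrc1 fell by 0.9996. The Rieske iron-sulfur protein Uqcrfs1, which takes electrons from ubiquinol, fell by 0.70 ± 0.20 in TI and by 0.54 ± 0.20 in TIM, the TIM call being lost without AG 2 or without AG 3. Uqcrh, the hinge protein, was the member that did not pass in either tumor, at -0.38 ± 0.29 in TI (FDR = 0.284) and -0.51 ± 0.29 in TIM (FDR = 0.147).

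In complex I the lower members included core subunits that bind the iron-sulfur clusters. Ndufs8, which carries iron-sulfur clusters, measured 20.5, 23.6 and 22.9 FPKM in AG and 28.8, 22.5, 28.8, 26.1 and 36.1 FPKM in AGM. It measured 7.01 to 13.1 FPKM (median 10.1) in TI and 7.22 to 22.0 FPKM (median 11.04) in TIM, and TIM 5 again was the only tumor library to reach the level of AG 1. Ndufs8 fell by 1.15 ± 0.23 on the log2 scale in TI (FDR = 0.000196) and by 0.92 ± 0.23 in TIM (FDR = 0.00176), and Ndufs1, the largest subunit, by 0.98 ± 0.13 and 0.83 ± 0.13. Ndufv1, which binds NADH, fell by 0.72 ± 0.22 and 0.76 ± 0.22, although both calls were lost without AG 2 or without AG 3. The accessory subunits Ndufc1, Ndufa6 and Ndufa3 fell by 1.04, 1.14 and 0.88 in TI, and the call of Ndufa3 was lost without AG 2 or without AG 3. The complex was not lower throughout: Ndufa5 and Ndufa11 were at 0.09 ± 0.25 (FDR = 0.82) and 0.08 ± 0.27 (FDR = 0.858) in TI. Among the assembly factors Ndufaf1 was the clearest, at 3.52, 3.65 and 3.55 FPKM in AG, between 1.29 and 2.12 FPKM for TI and between 1.76 and 2.51 FPKM for TIM, with log2 fold changes of -0.74 ± 0.10 and -0.53 ± 0.10.

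Of 17 tested members of complex V, 29.4% were lower in TI and 23.5% in TIM, beside 27.7% and 28.5% of all tested genes. The lower members with the largest changes were neither of the main catalytic subunits. The coupling factor 6 gene Atp5j measured 12.9, 14.9 and 13.5 FPKM in AG, between 6.10 and 9.81 FPKM for TI and between 5.49 and 10.4 FPKM for TIM, and fell by 0.82 ± 0.15 and 0.94 ± 0.15. Atp5b, the catalytic beta subunit, measured 69.3, 97.3 and 99.1 FPKM in AG, 45.2 to 70.0 FPKM (median 57.9) in TI and 56.2 to 95.7 FPKM (median 62.7) in TIM. The Atp5b ranges of both tumors overlapped that of AG, through AG 1. It fell by 0.64 ± 0.17 in TI (FDR = 0.00298), and its difference of -0.42 ± 0.17 in TIM (FDR = 0.0438) was past the threshold in the fit of all libraries but not without AG 2, AG 3, AGM 1 or any of 6 TIM libraries. The alpha subunit Atp5a1 fell by 0.57 ± 0.14 in TI and by 0.37 ± 0.14 in TIM, the TIM call being lost without AG 2, AG 3, TIM 4 or TIM 7. The 3 genes Atp5g1, Atp5g2 and Atp5g3 encode the same ring subunit c with different import signals. In TI against AG they were at 0.43 ± 0.18 (FDR = 0.0484), 0.39 ± 0.22 (FDR = 0.143) and -0.72 ± 0.15 (FDR = 0.000345). The call of Atp5g1 was lost under 18 of 32 other settings, whereas that of Atp5g3 was lost under 1. Atp5md, a small subunit of the membrane part, was the member of complex V higher in TIM, at 0.61 (FDR = 0.0389).

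**Figure D2:**
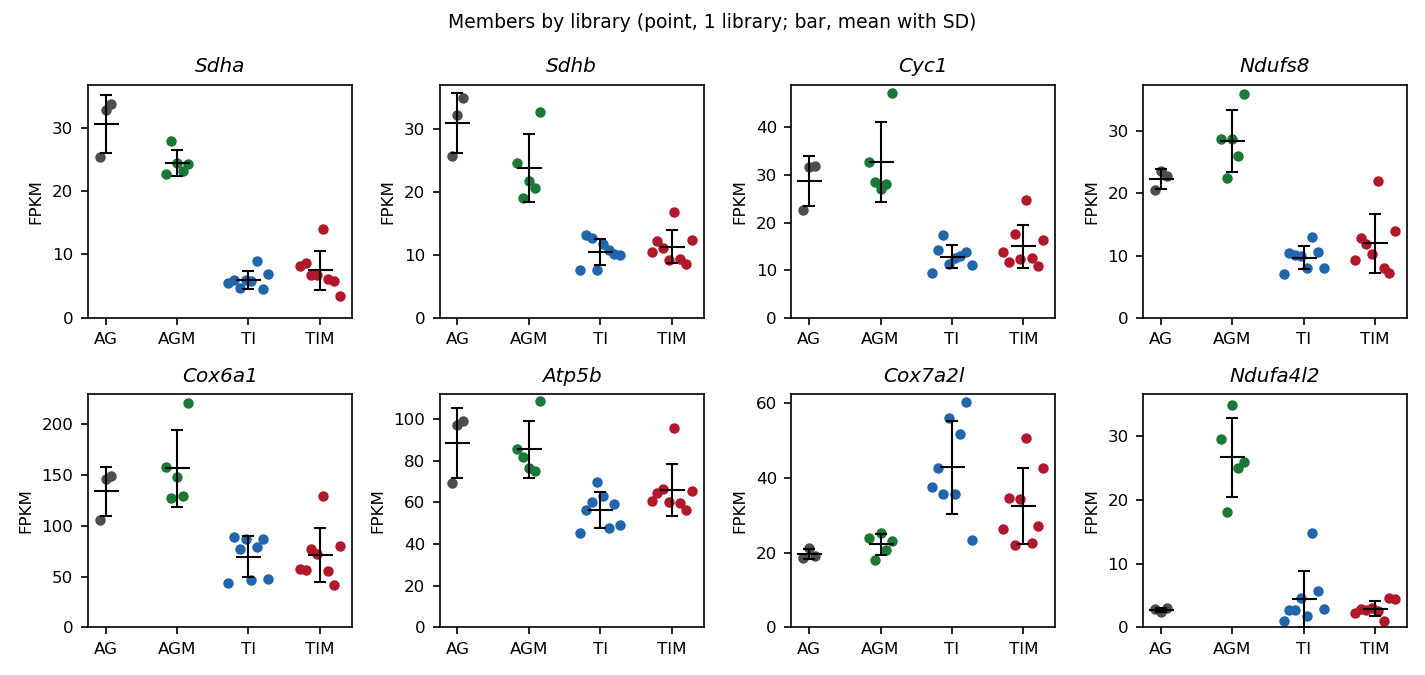
FPKM of 8 members in each of the 24 libraries (points), with the mean and SD of each group as bars. Sdha and Sdhb separate all tumors from all adrenal glands, Atp5b overlaps, Cox7a2l is higher in the TI libraries (23.3 to 60.1) than in the AG libraries (18.5 to 21.1), and Ndufa4l2 is high in AGM.

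In complex IV the largest differences were those of tissue isoforms. Cox8b, the heart and muscle type of the smallest subunit, measured 6.50, 72.1 and 66.9 FPKM in AG and 93.3, 64.6, 56.7, 42.2 and 141 FPKM in AGM. It was listed at 0 in most TI libraries, where the highest value was 0.237 FPKM, and ran from 0 (median 0.303) to 27.6 FPKM in TIM. Its log2 fold change was -4.99 ± 0.80 in TI (FDR = 1.73e-05) and -3.84 ± 0.80 in TIM (FDR = 0.000359). Cox7a1, the heart and muscle type of subunit 7a, measured 2.16, 14.9 and 14.3 FPKM in AG and 36.0, 27.4, 18.6, 12.1 and 52.2 FPKM in AGM. It ran from 0.0859 (median 0.211) to 0.762 FPKM in TI and from 0.104 (median 0.457) to 15.7 FPKM in TIM. Cox7a1 fell by 2.85 ± 0.66 in TI (FDR = 0.000878) and by 2.00 ± 0.66 in TIM (FDR = 0.0143), the second call being lost without AG 2 or without AG 3.

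Libraries with more Ucp1 mostly had more of both tissue isoforms. AG 2 and AG 3 were close in all of these genes, and TIM 1 had less Ucp1 than AG 1 but more of both isoforms. AG 1, with 3.90 FPKM of Ucp1, was lowest of AG for both genes, AGM 5, with 206 FPKM of Ucp1, was highest of all libraries, and TIM 5 and TIM 1, with 13.7 and 3.005 FPKM of Ucp1, were the 2 highest of TIM. Cox8b made up 8.46% of the sum of Cox8b and Cox8a in AG 1, and 41.6% and 39.6% in AG 2 and AG 3. The share was 14.7% in TIM 5, 11.1% in TIM 1 and at most 0.923% in the other TIM libraries. For Cox7a1 and Cox7a2 the shares in AG were 8.65%, 32.7% and 32.1%. Summed FPKM of 7 skeletal muscle markers lay between 0.984 and 2.88 for AG and reached at most 0.389 in AGM. In the tumors it reached 4.05 in TI and 13.0 in TIM, the latter in TIM 1. What part brown fat attached to the gland, or muscle, had in the values of Cox8b and Cox7a1 was not tested.

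**Figure D3:**
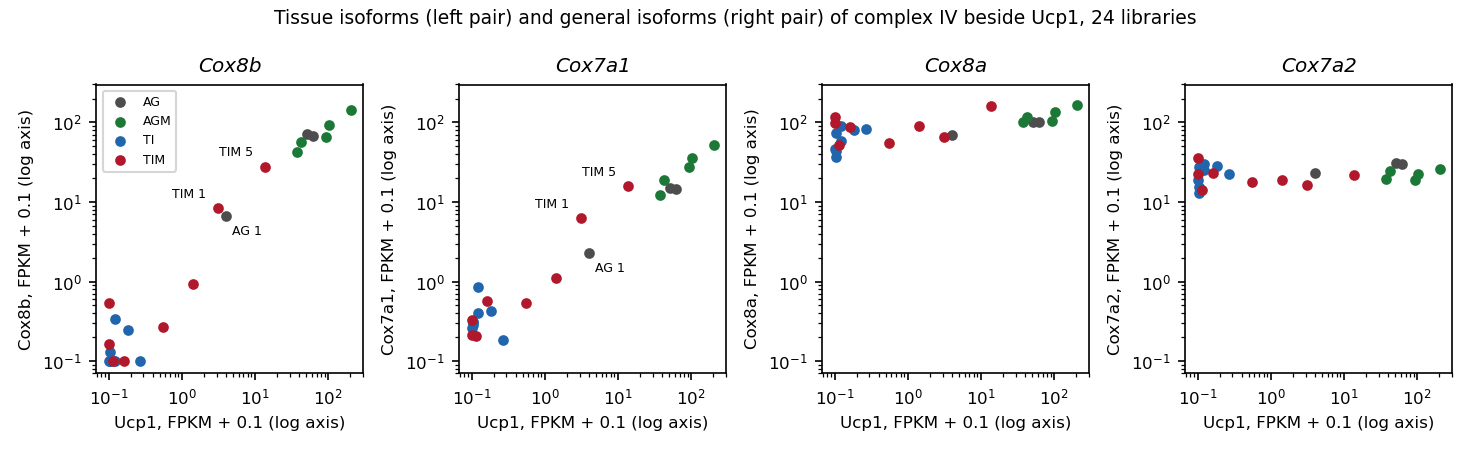
FPKM of the tissue isoforms Cox8b and Cox7a1 and of the general isoforms Cox8a and Cox7a2 (y axes) beside Ucp1 (x axis) in 24 libraries, with 0.1 added and log axes. Levels of the left pair are mostly higher in libraries with more Ucp1, up to AGM 5 (141 FPKM for Cox8b), and Cox8a and Cox7a2 spread over a narrow band.

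The start regions of both isoform genes, shown because the 2 genes moved together, held none of the 4 motifs searched in 300 bases (NRF1, ETS, the E-box CACGTG and the YY1 motif AANATGGCG, the last in 2.38% and the E-box in 7.15% of all listed windows), which says nothing of other motifs. Cox8b is at chr7:140900427-140900546 (minus strand) and Cox7a1 at chr7:30184071-30184190 (plus strand), from RefSeq on GRCm38.p6, and no base is in capitals because none matched.
Cox8b: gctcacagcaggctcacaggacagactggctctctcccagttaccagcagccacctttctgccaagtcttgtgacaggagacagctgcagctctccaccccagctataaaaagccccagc
Cox7a1: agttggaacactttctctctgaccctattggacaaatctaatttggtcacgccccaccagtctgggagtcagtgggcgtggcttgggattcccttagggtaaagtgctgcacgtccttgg

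The general isoforms of complex IV changed less or not past the test. Cox6a1 measured 106, 146 and 149 FPKM in AG, between 43.8 and 88.7 FPKM for TI and between 42.0 and 129 FPKM for TIM, and fell by 0.97 ± 0.28 in TI and 0.96 ± 0.28 in TIM. Cox6c and Cox6b1 fell by 0.87 and 0.76 in TI, the Cox6b1 call being lost without AG 2 or without AG 3. Cox4i1, a regulatory subunit, was at -0.33 ± 0.30 in TI (FDR = 0.391) and -0.45 ± 0.30 in TIM (FDR = 0.226), and Cox8a and Cox7a2 were at -0.55 (FDR = 0.134) and -0.34 (FDR = 0.248) in TI.

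Cox7a2l was the member of complex IV that was higher in the tumors. Its product, also called SCAF1 or COX7RP, is known for joining complexes III and IV into supercomplexes. The authors report backcrossing the mouse lines to C57Bl6/N. Neither the protein nor its activity in the strain of these mice was measured, so the RNA values say nothing of supercomplexes. It measured 18.5, 21.1 and 18.9 FPKM in AG and 23.8, 17.9, 25.2, 20.8 and 23.2 FPKM in AGM. In TI it ran from 23.3 (median 40.0) to 60.1 FPKM and in TIM from 22.0 (median 30.6) to 50.5 FPKM, above each AG library. It rose by 1.04 ± 0.25 on the log2 scale in TI (FDR = 0.00119), a call kept under all 32 other settings. In TIM it rose by 0.65 ± 0.25 (FDR = 0.0313), a call lost without any one of the 3 AG libraries.

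**Figure D4:**
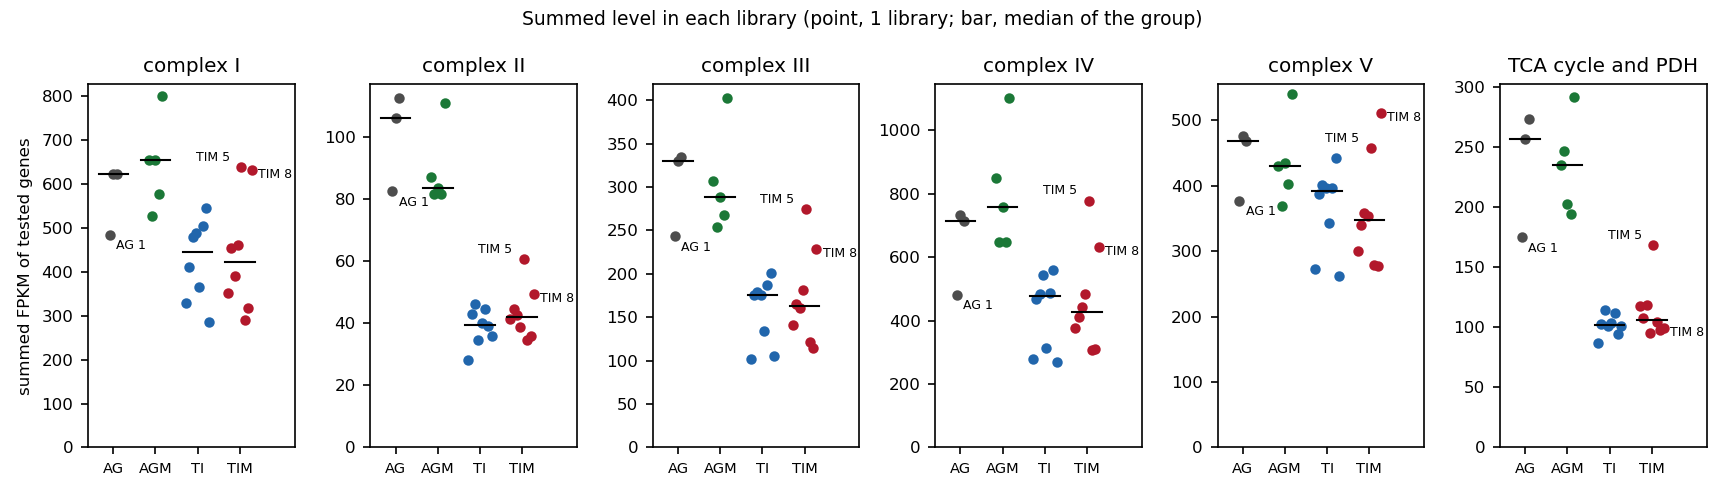
Summed FPKM of the tested members of each complex, and of 18 genes of the TCA cycle and pyruvate dehydrogenase (PDH), in each library. For complex II the lowest adrenal gland (81.7) lies above the highest tumor (60.6, TIM 5), whereas for complexes I, III, IV and V AG 1 lies within the range of TIM.

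The AG libraries differed among themselves. AG 1 was the lowest of AG for 88 of 93 tested members, and its summed FPKM of all members was 1688, beside 2289 and 2272 in AG 2 and AG 3. The tumors ran from 969 to 1804 in TI and from 1043 to 2228 in TIM. In TIM, TIM 8 and TIM 5 were highest for 47 and 40 of 93 members. TIM 8 had Ucp1 listed at 0 and summed brown adipocyte markers of 4.67 FPKM, whereas TIM 5 had 52.8 FPKM of them. A fit with AG 1 as the only AG library and without TIM 5, chosen after the data were seen and with fewer libraries, left 9 lower members in TI and 9 in TIM, 9.68% of members in each, beside 16.7% and 17.1% of all tested genes. The AG arm was then 1 library, assumed to vary like the other groups. Since AG 1 was the lowest of AG for most members, smaller differences follow from that choice, whatever the reason. TIM 8 was kept in this fit. The lower members in both included Sdha, Sdhb, Ndufs1, Ndufs8, Ndufaf1, Cox8b and Atp5j, with Cyc1 in TI and Sdhc in TIM besides. The median log2 fold change of complex II was then -0.92 in TI and -0.98 in TIM and that of complex III -0.62 and -0.49. Complexes I, IV and V had medians of -0.16, -0.14 and -0.10 in TI and -0.17, -0.017 and -0.15 in TIM. The log2 difference of Sdha in this fit was -1.94 in TI and -1.85 in TIM.

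**Figure D5:**
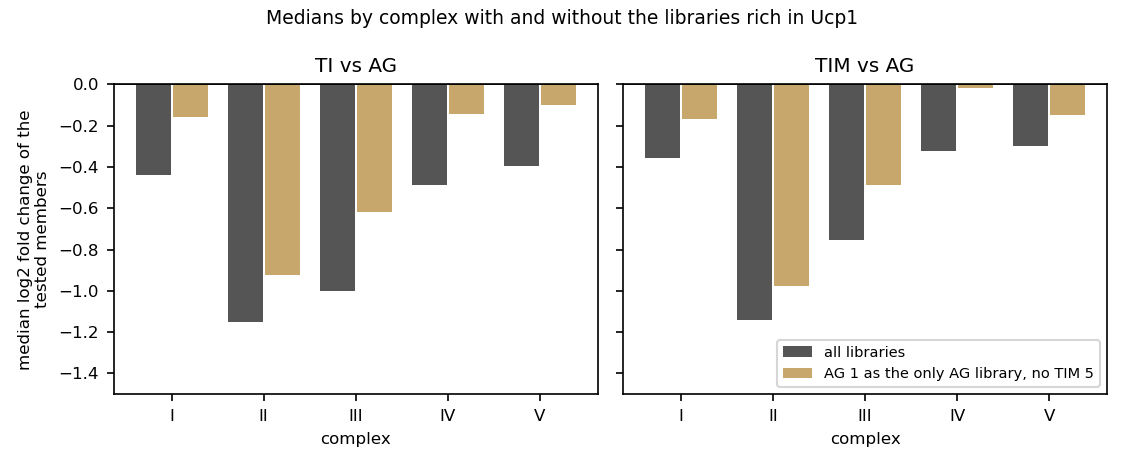
Median log2 fold change of the tested members of each complex in TI and TIM against AG, over all libraries (dark bars) and with AG 1 as the only AG library and TIM 5 left out (light brown bars). The light bars of complexes I, IV and V lie between -0.17 and -0.017, and those of complex II at -0.92 and -0.98. AG 1 was the lowest of AG for 88 of 93 members, so shorter light bars follow from that choice of library, whatever the reason.

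Against AGM, the adrenal glands that carry the MYCN transgene, 48 of 93 members (51.6%) were lower in TIM and 1 was higher, where 33.4% of all tested genes were lower and 31.9% were higher. The lower members were 20 of 37 in complex I, 4 of 4 in complex II, 8 of 9 in complex III, 8 of 18 in complex IV, 5 of 17 in complex V and 3 of 8 assembly factors. The share of complex V, 29.4%, did not exceed that of all tested genes. That of the assembly factors, 37.5%, was near it, and nothing is read from either. All 5 AGM libraries were from run 2, whereas of TIM 3 were from run 2 and 5 from run 3. The part of the run was not tested. The higher member was Cox7a2l at 0.48 ± 0.21 (FDR = 0.0457), a call lost under 17 of 32 other settings. The AGM libraries held 82.7 to 358 FPKM of brown adipocyte markers, as given above, and their part in this comparison was not tested. Leaving out TIM 5 or TIM 8 raised the number of lower members to 56 each.

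AGM and AG differed in few members. Of 93 members, 2 were higher and 3 were lower in AGM, where 14.6% of all tested genes were higher and 14.0% were lower. Scaling by the median of ratios moved this to 4 higher members with all 3 lower calls lost, and moved all tested genes from 1488 higher and 1420 lower to 1824 higher and 988 lower. The 3 lower calls were also lost without AG 2, 1 lower member was left without AG 3, AGM 1, AGM 4 or AGM 5, and 1 higher member without AG 1 and 4 without TIM 5. AG shared no sequencing run with AGM, so run and group cannot be told apart. Ndufa4l2, a paralog of the complex IV subunit Ndufa4 that is known to be induced by hypoxia, measured 2.83, 2.44 and 3.003 FPKM in AG and 29.5, 18.05, 34.8, 24.9 and 25.9 FPKM in AGM. The groups were far apart, and the log2 fold change was 2.85 ± 0.43 (FDR = 2.77e-05), kept under all 32 other settings. Markers of several cell types also differed between AGM and AG. Higher in AGM were 8 of 11 adrenal cortex, 6 of 10 chromaffin or sympathoblast, 3 of 5 white adipocyte and 2 of 3 tested brown adipocyte markers. The 5 erythroid markers summed to 130 to 273 FPKM in AG and 670 to 7237 FPKM in AGM, with 5 of 5 higher. The 7 pericyte and smooth muscle markers summed to 5.92 to 6.36 FPKM in AG and 12.3 to 16.5 FPKM in AGM. Of these, 1 of 5 tested genes (20%) was higher, near the 14.6% of all tested genes. Of 5 endothelial markers 2 were lower, and no macrophage marker passed. Their part in the result was not tested. In the tumors Ndufa4l2 was at 1.02 to 14.8 FPKM (median 2.798) in TI and 0.943 to 4.56 FPKM (median 2.82) in TIM. Its difference between TIM and AGM minus that between TI and AG was -3.12 on the log2 scale (FDR = 0.000189). Ndufb4, an accessory subunit of complex I, was higher in AGM by 0.94 ± 0.27 (FDR = 0.0115), a call lost without AG 1, whereas Ndufs1, Atp5j and Ndufaf4 were lower by 0.42, 0.55 and 0.37.

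Ndufs1 fell less in TIM against AGM (-0.41) than in TI against AG (-0.98), a difference of 0.57 between the signed values (FDR = 0.033), its levels being 2.07 to 3.63 FPKM in AGM and 3.20 to 4.17 FPKM in AG. For this difference of differences 1 member passed in each direction, where 3.85% of all tested genes were higher and 6.15% were lower.

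Few members differed past the test between TIM and TI. Of 93 members, 6 were higher and 3 lower in TIM, where 10.0% of all tested genes were higher and 12.9% were lower. Of the TI libraries 6 were from run 1, 1 from run 2 and 1 from run 3, and of TIM 3 were from run 2 and 5 from run 3. The columns could not be tied to runs, so run and group cannot be told apart here. Ndufa9, an accessory subunit of complex I, measured 8.07 to 19.99 FPKM (median 12.3) in TIM and 4.72 to 11.2 FPKM (median 6.55) in TI, a log2 fold change of 0.74 ± 0.15 (FDR = 0.00211). Ndufb4 measured 4.40 to 13.8 FPKM in TIM and 2.57 to 6.37 FPKM in TI, a log2 fold change of 0.81 ± 0.18 (FDR = 0.0038). Cox5a, Ndufb6, Ndufaf1 and Atp5md were higher by 0.45, 0.47, 0.21 and 0.50, and Ndufb10 and Atp5h lower by 0.62 and 0.58. The call of Atp5md was lost under 24 and that of Ndufaf1 under 12 of 32 other settings, and that of Cox5a without TI 1, TI 7, TIM 3 or TIM 5. The third lower member, Cox7b2, was listed at 0 in AG and AGM and passed the filter on low values through TI, where it was high, so its call is not read as a result. The calls of Ndufa9 and Ndufb4 were kept without any single library. The number of higher members was 2 without TI 1, TIM 3 or TIM 5, and 3 without TI 2, TI 5, TI 7 or TIM 2.

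The TCA cycle and pyruvate dehydrogenase, which supply the chain with NADH and succinate, had mostly lower genes in the tumors. Of 18 listed genes, 17 (94.4%) were lower in TI and 15 (83.3%) in TIM against AG, beside 27.7% and 28.5% of all tested genes. The medians were -1.01 and -1.12. In TIM against AGM 17 (94.4%) were lower, beside 33.4% of all tested genes. Suclg2, a subunit of the succinyl-CoA ligase one step before complex II, was at 6.33 ± 0.092 FPKM in AG, 0.385 ± 0.10 FPKM in TI and 0.904 ± 0.41 FPKM in TIM (SD), with log2 fold changes of -2.41 (FDR = 2.09e-12) and -1.98 (FDR = 6.76e-11). Ogdh, of the oxoglutarate dehydrogenase, fell by 2.05 and 2.13. Mdh2, the malate dehydrogenase, was at -0.02 (FDR = 0.975) and 0.12 (FDR = 0.547). With AG 1 as the only AG library and without TIM 5, the medians of the 18 genes were -0.73 in TI and -0.71 in TIM.

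Among 23 tested carriers, shuttles and inner membrane proteins, 12 were lower and 3 higher in TI, and 11 were lower and 5 higher in TIM. The lower shares were 52.2% in TI and 47.8% in TIM, beside 27.7% and 28.5% of all tested genes. The list includes Ucp1, which had its lowest log2 fold changes, -4.62 in TI and -3.70 in TIM. With AG 1 as the only AG library and without TIM 5, the list median was -0.27 in TI and -0.16 in TIM. Over all libraries it was -0.37 and -0.31. Etfa, Etfb and Etfdh, which pass electrons from fatty acid oxidation to ubiquinone, fell by 3.08, 0.98 and 1.30 in TI. Slc25a4, an exchanger of ATP for ADP, rose by 1.03 in TI and 1.20 in TIM, and Tomm20, a receptor of protein import, by 0.59 and 0.78. Of 35 tested assembly factors outside the Ndufaf genes, 19 were lower and 2 higher in TI, and 16 lower and 3 higher in TIM, lower shares of 54.3% and 45.7%. Their median was -0.34 in TI and -0.35 in TIM. With AG 1 as the only AG library and without TIM 5, it was -0.40 and -0.29 over the 33 then tested. Of 13 tested regulators, 5 (38.5%) were lower and 2 higher in TI, and 8 (61.5%) were lower in TIM. The tumor-free AGM also had 5 (38.5%) lower than AG, beside 14.0% of all tested genes. In TIM against AGM 4 (30.8%) were lower, which did not exceed the 33.4% of all tested genes. The lower share against AG was thus not particular to tumors, and AG shared no sequencing run with AGM or TIM. Esrra, a nuclear receptor that activates respiratory genes, fell by 1.08 in TI and 0.90 in TIM, and Tfb2m, a factor of mitochondrial transcription, by 0.98 and 0.99. The coactivator Ppargc1a stayed below 1 FPKM in every library and was not tested.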

How the data were processed

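RNA-seq of 24 mouse tissue samples was analysed from 1 deposited table. Per the submitters' processing notes, reads were trimmed with cutadapt 2.8, aligned to mm39 with HISAT2 2.1.0 and SAMtools 1.10, and counted with featureCounts 2.0.0. The authors corrected batches with ComBat-seq and deposited FPKM from edgeR 3.40 with TMM scaling. The table also held 9 columns of the authors' log2 fold changes, p-values and FDR, which were not used. FPKM times length gave whole reads for 100% of entries (tolerance 0.01), and limma-voom on these reads, run as an alternative, called 2203 genes higher and 2911 lower in TI against AG. Other alternatives were a pseudocount of 0.1, other filters, other scalings, the spread from 2 groups alone and each library left out.

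limma 3.58.1 (R 4.3.3; intensity trend) was fitted to log2(FPKM + 1) of 10171 genes (1 FPKM or more in 3 or more libraries), all 4 groups sharing the spread. The added 1 FPKM understates fold changes of low genes. P-values were adjusted over all tested genes. The fit was tested on simulated data. Genes were named as a panel of core subunits and isoforms plus the 2 largest changes per complex and comparison, and those outside it are given as examples picked after their values were seen. One member of the panel is counted but not reported here by name. Members and gene lists were chosen with earlier results of these data known. Columns were assigned to groups by name, and no 2 were identical. No label says whether libraries came from separate mice, so p-values measure only the spread between these samples. Runs per the labels were 1 for AG, 2 for AGM, 1 to 3 for TI, and 2 and 3 for TIM. Promoters were searched for 4 motifs on both strands in windows from 250 bases before to 50 after each start.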

Additional observations from a re-analysis of the deposited data

Results flagged for a closer look

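Dixon's criterion sets apart about 1 in 20 groups by chance only where values are normally distributed and groups are independent. It was applied to FPKM without a log scale, and the members share the same libraries. No excess over that rate is therefore read from the count below. In 23 of 138 groups of libraries tested for the named members, the highest library stood apart from the others. TIM 5 was that library for 8 members, in FPKM Ndufv1 (20.4, next 12.9), Sdhb (16.9), Uqcrc1 (29.0), Atp5b (95.7), Cox6a1 (129), Cox7a1 (15.7), Cox8b (27.6) and Ndufs8 (22.0). TIM 8 stood apart for Ndufa4 at 48.0 FPKM, Cox7a2 at 35.5 FPKM, Atp5j at 10.4 FPKM and Ndufa9 at 19.99 FPKM. TI 6 did so for Uqcrc1 at 17.8 FPKM, Ndufa4l2 at 14.8 FPKM, Cox7a1 at 0.762 FPKM and Ndufaf3 at 4.64 FPKM, and it also held the highest summed adrenal cortex markers of TI, 20.8 FPKM. AGM 5 stood apart for Cyc1 at 47.1 FPKM, Cox5a at 19.97 FPKM and Atp5l at 8.10 FPKM. Single cases were Cox6b2 in TI 2 (1.85 FPKM), Cox6a2 in TIM 1 (1.97 FPKM), Cox7b2 in TIM 3 (0.195 FPKM) and Cox4i2 in TIM 7 (3.60 FPKM). The summed skeletal muscle markers of TIM 1 were 13.0 FPKM, the highest of all libraries, and their part in the Cox6a2 value was not tested.

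The difference between TIM and AGM was not the same as that between TI and AG for 2 named members by the limma test of the difference itself. The difference of differences was 0.57 on the log2 scale for Ndufs1 (FDR = 0.033) and -3.12 for Ndufa4l2 (FDR = 0.000189).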

How the results depend on the processing

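Of 100 calls of named members, 47 were kept under all 32 other settings and 0 changed direction. Leaving out each library gave 1 to 4 higher and 29 to 41 lower members in TI against AG, 0 to 4 and 18 to 42 in TIM against AG, 1 to 4 and 0 to 3 in AGM against AG, 2 to 8 and 2 to 4 in TIM against TI, and 0 to 1 and 38 to 56 in TIM against AGM. With the spread from the 2 groups compared alone, TIM against AG had 0 higher and 21 lower members (22.6%, beside 26.4% of all tested genes). In those fits AGM against AG had 11 higher and 5 lower, TIM against TI 3 higher and 1 lower, and TIM against AGM 0 higher. With no filter, TIM had 1 higher member against AG and 0 against AGM. Median of ratios scaling gave 4 higher and 0 lower in AGM against AG and 0 higher in TIM against AGM, where centring gave 2. Either scaling left 27 lower members (29%) in TIM against AG. That was near the share of all tested genes, 26.6% with median of ratios and 27.2% with centring. A pseudocount of 0.1 and limma-voom each left 1 lower member in AGM against AG, and limma-voom 3 higher in TIM against TI. With AG 1 as the only AG library and without TIM 5, a setting chosen after seeing the data, there were 1 higher and 9 lower members in TI against AG, 0 and 9 in TIM against AG, 0 lower in AGM against AG, 2 higher in TIM against TI and 0 higher in TIM against AGM. Fewer samples enter that setting and the libraries left out, and otherwise the cause was not tested. No paired analysis was possible because the columns carry no replicate number that matches the sample titles. The 3 AG libraries limit the precision of each comparison with AG.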
